A study of Triticum aestivum with 18 samples.

Results

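The alpha-amylase/trypsin inhibitor CM3 of bread wheat (Triticum aestivum) was followed as 1 gene, the locus MSTRG.38762 on chromosome arm 4BL, among the 115478 loci of the deposited table. It was chosen by its FPKM in the grain libraries, which differed between groups, and it was taken by its identifier. Its levels in grain are therefore a description without a test. Of the table's descriptions, 5 others named an amylase inhibitor or a serpin, and these were taken as context. The table listed 2 transcripts of the gene model TRIAE_CS42_4BL_TGACv1_321643_AA1063570 under this locus. Its position and sequence were not analysed here.

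Grains and flag leaves were collected at grain filling, and poly(A) RNA was sequenced in 18 libraries, 3 for each of 6 groups. The grain groups were plants whose spikes were shaded and whose leaves were all taken off (shaded grain), plants that had lost 0.5 of the spike (partial removal), and normally growing plants (control). Flag leaves came from normally growing plants, after partial removal, and after the whole spike had been taken off. Shading was applied only together with loss of the leaves, so these cannot be told apart. The labels give no cultivar or plant age. Nothing in them shows that libraries of the same group were taken from different plants, and p-values measure only the spread between libraries, which may be technical.

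CM proteins, named for their solubility in chloroform and methanol, are small disulfide-bonded proteins of the starchy endosperm, the storage tissue of the grain. CM3 is a subunit of a multi-subunit inhibitor that blocks alpha-amylases of insects and mammals, and the family is known as a store of sulfur-rich protein, as a defence against grain pests and as an allergen in baker's asthma. The genes are switched on during grain filling together with those of gliadins and glutenins, the gluten proteins.

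The values were FPKM, fragment numbers set against transcript length and against the mapped fragments of the library, so levels of different genes are per length. The number of reads behind a value was unknown, and precision was taken from the spread between libraries. Loci without a gene name took 89.9% of the FPKM sum in shaded library 2, against 13.9% to 55.4% in the other 17, and the highest of those was control grain library 1. FPKM was therefore also scaled between the 9 grain libraries, so that a typical gene had the same value in each (scaled FPKM). The factor was 0.232 in shaded library 2 and lay between 0.933 and 1.44 in the other grain libraries.

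CM3 was low in shaded grain and high in the other grain. Deposited values were 19.5, 2.03 and 15.7 FPKM in shaded grain libraries 1, 2 and 3. They were 67.4, 63.8 and 92.8 FPKM after partial removal, and 113, 85.1 and 82.7 FPKM in control grain. Every shaded library lay below every other grain library, and the value of 2.03 came from the library with 89.9% of its FPKM on unnamed loci.

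After scaling, the shaded libraries stood closer together, at 16.0, 8.78 and 12.4 scaled FPKM. Partial removal gave 52.2, 44.2 and 72.4, and the control gave 121, 67.4 and 71.8. The shaded group again did not overlap with either of the others, whereas the highest library after partial removal lay above the lowest control. Ordered by level, shaded grain (12.4 ± 3.63 scaled FPKM, SD, n = 3) stood below grain after partial removal (56.3 ± 14.6) and control grain (86.8 ± 29.9). The ranges of the last 2 groups overlapped, and the gap between their means was not tested.

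**Figure D1:**
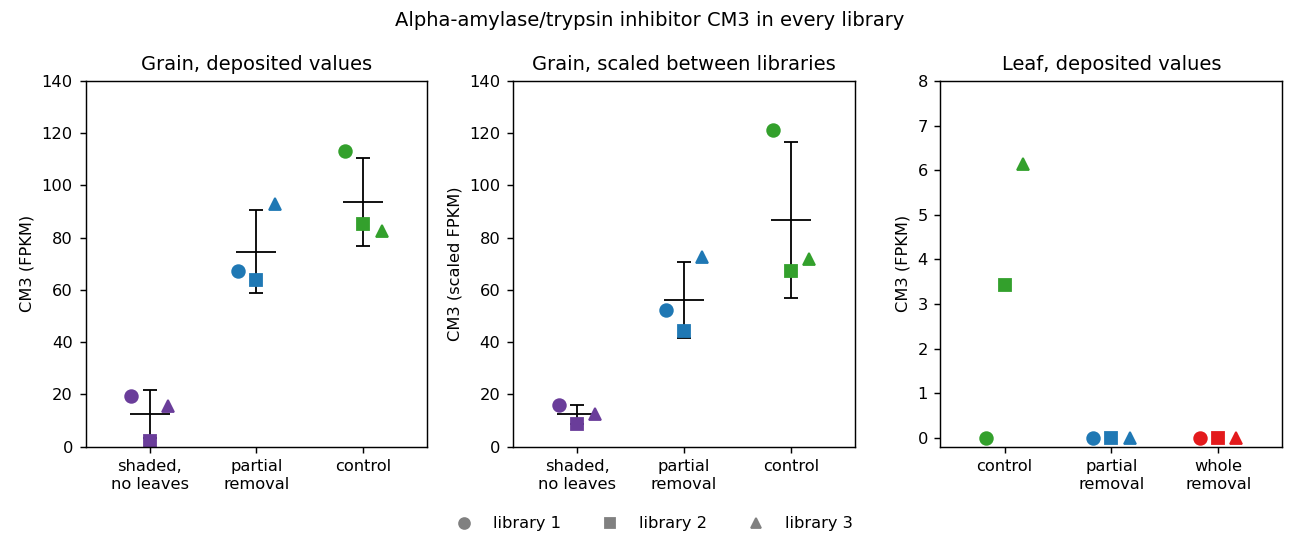
CM3 in each library, as deposited FPKM in grain (left), as FPKM scaled between the 9 grain libraries (middle), and as deposited FPKM in leaf (right); points are libraries, horizontal bars are means and error bars are SD (n = 3). Shaded grain lies between 2.03 and 19.5 FPKM, below all other grain libraries, and 7 of 9 leaf libraries are at 0.

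The mean in shaded grain was 0.143 of that in control grain on the scaled values and 0.133 on the deposited ones. Without shaded library 2 these fractions were 0.164 and 0.188. Partial removal left 0.648 of the control mean on the scaled values. On the scale used for tests, log2(scaled FPKM + 1), the difference in CM3 was -2.70 for shaded grain minus control, -0.60 for partial removal minus control and -2.10 for shaded grain minus partial removal. The spread within groups on this scale was an SD of 0.43 for the first pair, 0.41 for the second and 0.38 for the third, and the first and second differences share their control libraries. The median difference over all 45784 loci tested was 0.0058 in shaded grain against control, a median that the scaling itself makes small.

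Among the 97029 loci with a gene name, CM3 ranked 2401, 4663 and 2924 by FPKM in shaded grain libraries 1, 2 and 3. It ranked 627, 675 and 505 after partial removal and 221, 534 and 573 in control grain. A share that leaves out the unnamed loci gave the same order, with 51.5, 25.9 and 48.0 ppm of the FPKM on named loci in shaded grain. The shares were 195, 178 and 242 ppm after partial removal and 449, 227 and 216 ppm in control grain. Control library 1 was the highest on each of these measures.

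In bulk grain, fewer endosperm cells and less CM3 RNA per cell cannot be told apart. Markers of other grain tissues were therefore set beside CM3. Oleosins, caleosins and other genes of embryo and aleurone, which store oil and desiccation proteins, took 0.540%, 0.469% and 0.517% of named FPKM in shaded grain. They took 0.620%, 0.656% and 0.630% after partial removal, and 0.584%, 0.748% and 0.766% in control grain. Of the 28 loci of this list 18 passed the filter on low values (FPKM of at least 1 in at least 3 of the 9 grain libraries). Shaded grain was the lowest of the grain groups on this measure, with a far smaller gap than for CM3. The list was not exclusive to embryo and aleurone, since it took 0.0929% to 0.197% of named FPKM in the flag leaf libraries. Genes of green tissue, such as chlorophyll binding proteins, summed to 15.9, 11.1 and 7.05 FPKM in shaded grain. Their sums were 34.5, 63.3 and 66.7 FPKM after partial removal and 27.9, 17.1 and 17.9 FPKM in control grain, with 8 of 108 loci passing the filter. As a share of named FPKM the groups overlapped, with 0.00420%, 0.0142% and 0.00215% in shaded grain, 0.0100%, 0.0177% and 0.0174% after partial removal, and 0.0111%, 0.00458% and 0.00467% in control grain. The part of either tissue in the CM3 values was not tested.

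Ratios within a library do not depend on scaling, and they separated the groups in another way. The denominators below were chosen after their values had been seen. Relative to the summed FPKM of the storage protein list (gliadins, glutenins and related proteins), CM3 stood at 0.850%, 1.17% and 0.914% in shaded grain. It stood at 2.62%, 2.02% and 2.85% after partial removal, and at 1.78%, 1.32% and 1.46% in control grain. No 2 groups overlapped, with shaded grain lowest and partial removal highest. The storage protein sum itself was 1887, 747 and 1356 scaled FPKM in shaded grain, 1990, 2186 and 2546 after partial removal, and 6804, 5112 and 4926 in control grain. The storage sum after partial removal thus lay below all controls, whereas CM3 overlapped with them. Of the 18 storage protein loci that passed the filter, 10 were at 0 in at least 1 grain library. The sum and the ratio to it therefore also depend on which loci had a value.

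Beta-amylases, starch-degrading enzymes that endosperm stores in large amounts, gave a like picture. CM3 was 1.84%, 2.12% and 1.67% of their summed FPKM in shaded grain. It was 7.93%, 6.46% and 7.68% after partial removal and 3.59%, 4.34% and 2.09% in control grain. The ratio was higher after partial removal than in any other library, while shaded library 2 lay just above control library 3.

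**Figure D2:**
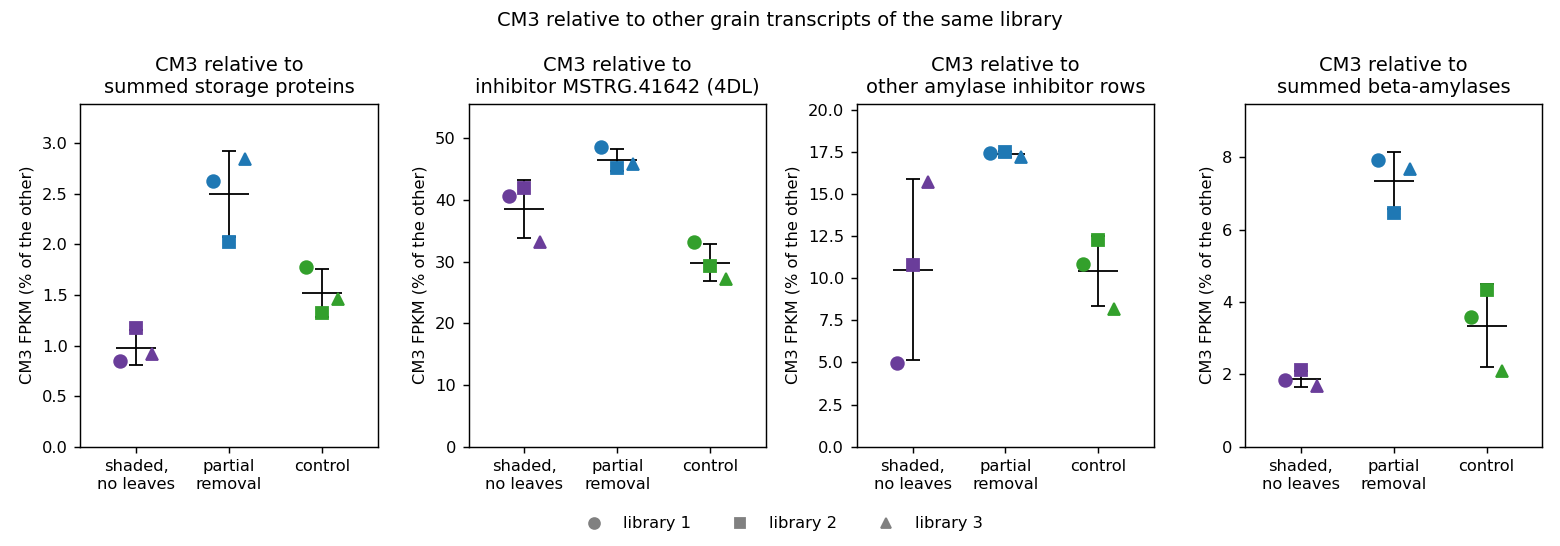
CM3 as a percentage of 4 other quantities of the same library: the summed storage protein list, the inhibitor locus MSTRG.41642, the 6 other loci annotated with alpha-amylase inhibitor activity, and the summed beta-amylases; points are libraries, bars are means and error bars are SD (n = 3). Grain after partial removal is the highest group in all 4 panels, and its libraries lie between 2.02% and 2.85% for storage proteins. Ratios to MSTRG.34064 and to the starch synthase MSTRG.3852, not drawn, did not set it apart from both other groups.

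Other inhibitors of the same enzyme class were found through the table's gene ontology terms, a choice made after the table had been read. Besides CM3, 6 loci carried the term alpha-amylase inhibitor activity, none of them with a description. The most abundant in grain, MSTRG.34064 on 3DS, had 106, 33.2 and 57.8 scaled FPKM in shaded grain. It had 135, 161 and 210 after partial removal and 475, 240 and 365 in control grain. No 2 of the 3 groups overlapped. It fell in shaded grain against control by 2.53 ± 0.43 on the log2 scale (SE, limma adjusted p = 0.0282), a call lost in 8 of the 17 other settings tried, where adjusted p reached 0.101. After partial removal it was 1.06 ± 0.43 lower on the log2 scale and was not called (limma adjusted p = 0.746). In shaded grain against control, limma called 1.76% of all loci, 1.45% as lower and 0.306% as higher.

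Of the 6 loci 5 passed the filter, and MSTRG.34064 was the only 1 of these called with the settings used here. All 5 had lower means in shaded grain than in control grain. For MSTRG.11844 on 2AL the means were nearly equal, at 6.04 ± 5.24 and 6.09 ± 3.77 scaled FPKM (SD, n = 3 each, limma adjusted p = 0.856). MSTRG.61359 on 6BS was listed at 0 in all shaded libraries, but also in control library 1 and in library 2 of partial removal. MSTRG.26379 on 3B averaged 34.1 ± 25.3 scaled FPKM in shaded grain and 177 ± 140 in control grain (SD, n = 3 each, limma adjusted p = 0.193). MSTRG.75493, not placed on a chromosome arm, averaged 24.7 ± 27.1 and 265 ± 56.7 in the same groups (limma adjusted p = 0.111). It was listed at 0 in shaded library 3, and without that library its log2 difference was -2.94 and it was called (limma adjusted p = 0.0496). It was also called without scaling. MSTRG.34155, a second locus on 3DS, had 109 FPKM in shaded library 1 and 0 in the other 8 grain libraries. Inhibitor genes of this family occur as near-identical copies, so reads may have been split between them, and single copies are uncertain.

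The wider term serine-type endopeptidase inhibitor activity covered 118 loci besides CM3, of which 59 passed the filter. In shaded grain 7 of these fell and 1 rose against control, where 1.45% of all loci fell and 0.306% rose. None of the 59 was called after partial removal against control, where 0.0306% of all loci were called. An unadjusted p under 0.05 in limma was found for 15 of the 59 and for 6.43% of all loci. Among the 59 was MSTRG.41642 on 4DL, the only other locus of this term on a chromosome of group 4 that passed the filter. Its level was 39.5, 20.9 and 37.4 scaled FPKM in shaded grain, 107, 97.8 and 158 after partial removal, and 366, 231 and 263 in control grain. It did not overlap between any groups and fell in shaded grain by 3.12 ± 0.31 on the log2 scale (SE, limma adjusted p = 0.0059), a call kept in all 17 other settings. After partial removal it was 1.24 lower on that scale and not called (limma adjusted p = 0.389).

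CM3 was 40.6%, 41.9% and 33.1% of MSTRG.41642 in shaded grain. It was 48.6%, 45.2% and 45.9% after partial removal, and 33.1%, 29.2% and 27.3% in control grain. Partial removal lay above all other libraries, and the lowest shaded and the highest control library were nearly equal. Against the 6 other amylase inhibitor loci summed, CM3 took 4.99%, 10.8% and 15.7% in shaded grain, 17.4%, 17.5% and 17.2% after partial removal, and 10.8%, 12.3% and 8.17% in control grain. This share was higher after partial removal than in any other grain library and nearly equal in its 3 libraries. Some loci of the sum were listed at 0 in some libraries, so the share also depends on which loci had a value. Against MSTRG.34064 alone CM3 was 15.1%, 26.4% and 21.5% in shaded grain. It was 38.5%, 27.5% and 34.5% after partial removal, and 25.5%, 28.1% and 19.7% in control grain. There partial removal overlapped with the control.

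MSTRG.70436 on 7BS and MSTRG.51125 on 5BS, both with the serine-type term alone, fell as well in shaded grain. The first averaged 69.1 ± 28.7 scaled FPKM in shaded grain and 487 ± 150 in control grain (SD, n = 3 each, limma adjusted p = 0.0197). The second averaged 3.38 ± 0.81 and 50.5 ± 32.7 in the same groups (limma adjusted p = 0.00735). The call of MSTRG.70436 was lost in 4 of the 17 other settings, and that of MSTRG.51125 was kept in all of them. In contrast, MSTRG.34144 on 3DS, among the most abundant loci of this term, averaged 222 scaled FPKM in shaded grain, 241 after partial removal and 235 in control grain (limma adjusted p = 0.915 for shaded grain against control). The loci of this term thus did not move as 1 block.

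Serpins are protease inhibitors that trap their target irreversibly, and cereal grains store them in the endosperm. Of the 5 context loci with a description, 3 serpins passed the filter and 2 amylase inhibitor-like proteins did not. Serpin-N3.2 (MSTRG.53264, 5DL) had 2.35, 14.0 and 16.5 scaled FPKM in shaded grain, 12.8, 9.28 and 18.8 after partial removal, and 123, 38.3 and 122 in control grain. Unlike for CM3, the shaded and the partial removal libraries overlapped, and both lay below all controls. Its difference was -3.14 ± 0.67 for shaded grain against control (log2 ± SE, limma adjusted p = 0.0593) and -2.58 ± 0.67 for partial removal against control (limma adjusted p = 0.403).

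Serpin-Z1C (MSTRG.45747, 5AL) had 4.16, 7.86 and 10.1 scaled FPKM in shaded grain, 5.35, 6.87 and 3.15 after partial removal, and 33.8, 9.97 and 60.1 in control grain. Only the shaded libraries overlapped with the controls. Serpin-Z2A (MSTRG.49146, 5BL) had 0.331, 1.17 and 1.54 in shaded grain, 2.44, 2.93 and 3.15 after partial removal, and 6.03, 3.39 and 2.34 in control grain. It was the one serpin whose libraries after partial removal overlapped with the controls, as those of CM3 did.

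None of the 3 serpins passed the test in grain. In limma, 0 of 3 were called in shaded grain against control, where 3 had an unadjusted p under 0.05. In partial removal against control 0 of 3 were called, with 2 at an unadjusted p under 0.05, and in shaded grain against partial removal 0 of 3, with 1. Of all loci 16.2%, 6.43% and 12.8% had an unadjusted p under 0.05 in these 3 comparisons. Over all loci 0.0306% were called in partial removal against control, 0.00655% as higher and 0.024% as lower. In shaded grain against partial removal 0.179% were called, 0.0284% as higher and 0.151% as lower. Without control library 2, Serpin-N3.2 and Serpin-Z1C were called in shaded grain against control. No other library left out alone changed this count. The 2 amylase inhibitor-like proteins, on 6BS and 1DL, stayed at or below 0.492 FPKM in all grain libraries and were listed at 0 in all 3 shaded ones.

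**Figure D3:**
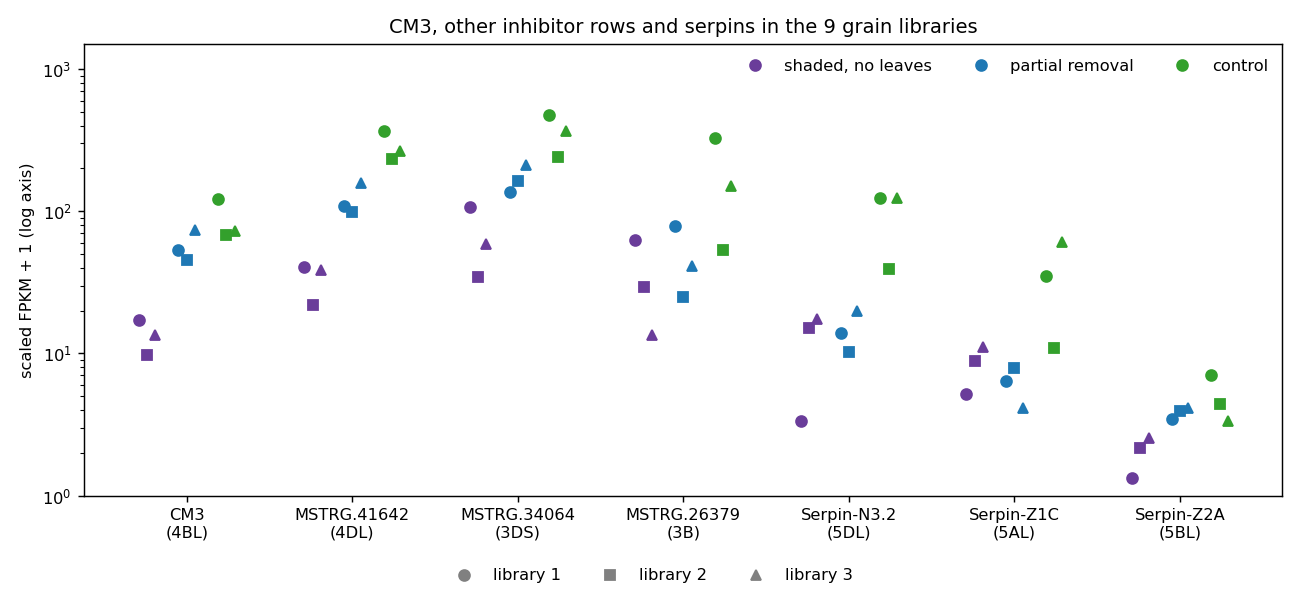
Scaled FPKM + 1 on a log axis of CM3, 3 other inhibitor loci and the 3 serpins in the 9 grain libraries; colours are groups and point shapes are library numbers. CM3, MSTRG.41642 and MSTRG.34064 have shaded grain below partial removal in every library, while the shaded and partial removal points of Serpin-N3.2 and Serpin-Z1C overlap.

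The genes whose level most resembled that of CM3 were sought among 2219 other loci with an informative description and a mean of at least 5 scaled FPKM, by Pearson's r of log2(scaled FPKM + 1) over the 9 grain libraries. The points form 3 groups and share their libraries, so r is a description. It was at least 0.9 for 19 loci. The closest was a starch synthase (MSTRG.3852, 1BL), which extends the glucan chains of starch, with r = 0.98, and r = 0.97 without shaded library 2. It averaged 1.98 ± 1.30 scaled FPKM in shaded grain, 9.69 ± 2.53 after partial removal and 22.7 ± 8.23 in control grain. As a percentage of this starch synthase CM3 was 476%, 1118% and 698% in shaded grain. The values were 513%, 635% and 606% after partial removal, and 383%, 318% and 466% in control grain. On this ratio shaded grain had the highest mean and overlapped with partial removal.

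Next came pyrroline-5-carboxylate reductase (MSTRG.26869, 3B), the last enzyme of proline synthesis, at r = 0.98. Its range was narrow, with 4.97 ± 0.51, 6.70 ± 0.39 and 7.96 ± 0.70 scaled FPKM in shaded grain, after partial removal and in control grain. An alpha/beta-gliadin (MSTRG.61551, 6BS) followed at r = 0.95. Glyceraldehyde-3-phosphate dehydrogenase (MSTRG.62081, 6DL), an enzyme of glycolysis, had r = 0.95. An acyl-[acyl-carrier-protein] hydrolase (MSTRG.74546, 7DS), which releases fatty acids in plastids, also had r = 0.95. The bZIP transcription factor 53 (MSTRG.3012, 1AS), known in Arabidopsis as an activator of seed maturation genes, had r = 0.94. It averaged 2.75 ± 0.46 scaled FPKM in shaded grain, 7.49 ± 1.37 after partial removal and 10.6 ± 1.96 in control grain.

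A low molecular weight glutenin subunit (MSTRG.6164, 1BS) had r = 0.94 and a UBX domain-containing protein (MSTRG.20086, 2DL) had r = 0.93. Of these 8 genes 5 were also among the 8 closest without shaded library 2. Outside this selection, which needed a description, MSTRG.41642 had r = 0.98 with CM3. Serpin-N3.2 had r = 0.65 and Serpin-Z1C r = 0.39. Storage protein loci did not share 1 level of likeness. Besides MSTRG.61551 and MSTRG.6164, those among the candidates ran from r = 0.85 (globulin 1, MSTRG.4150) to r = -0.41 (another alpha/beta-gliadin, MSTRG.58222).

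Gene lists of grain filling, in shaded grain against control, placed CM3 beside the loci that stood lowest. Of all loci 1.45% were called as lower in this comparison and 0.306% as higher. Of 18 storage protein loci that passed the filter, 4 fell, none rose and 14 did not pass the limma test, and their median log2 difference was -2.29. Those that fell were the glutenin subunit MSTRG.6164, to 68.1 ± 25.8 scaled FPKM in shaded grain against 580 ± 173 in control grain (SD, n = 3 each, limma adjusted p = 0.00803), gamma-gliadin 5 (MSTRG.5991, log2 -2.46), the alpha/beta-gliadin MSTRG.61551 (log2 -2.12) and globulin 1 (MSTRG.4150, log2 -2.66). The calls of MSTRG.6164 and MSTRG.4150 were kept in all 17 other settings. That of MSTRG.5991 was lost in 7 of them and that of MSTRG.61551 in 2. Gamma-gliadin 2 (MSTRG.10037), the most abundant of the list, had a difference of -2.20 and was not called (limma adjusted p = 0.0605). Of the 18 loci 10 were at 0 in at least 1 grain library, mainly gliadins with many near-identical copies, and 1 was a transcription factor, the prolamin binding factor, matched by its name.

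Of 49 loci of starch and sucrose metabolism 11 fell in shaded grain (1.45% of all loci) and none rose, with a median of -0.49. Starch synthase MSTRG.3852 was 3.03 lower on the log2 scale (limma adjusted p = 0.00815), a difference close to that of CM3. Starch branching enzyme I (MSTRG.64878, 7AL), which adds branches to starch, had a log2 difference of -2.06. Sucrose synthase MSTRG.17070 on 2BS, which opens sucrose for use in the grain, fell to 1.94 ± 0.48 scaled FPKM in shaded grain, against 7.68 ± 1.83 in control grain. It was also the one locus of the list called in shaded grain against partial removal, where it stood at 9.53 ± 1.45 after partial removal (limma adjusted p = 0.0152). That call was lost in 4 of 17 other settings, among them without library 1 or 2 of partial removal, with adjusted p up to 0.0969. Without shaded library 2 the count of 11 became 3, and without shaded library 3 it became 2. It became 7 without library 1 or 3 of partial removal and without control library 1 or 2.

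Other inhibitors and defence proteins divided. The list held 81 loci above the filter, but 39 without methionine enzymes that its pattern had matched by accident. The 3 that fell in shaded grain were all thionins, small antimicrobial proteins of the grain: type-5 thionin (MSTRG.9138), at 31.7 ± 8.38 scaled FPKM in shaded grain against 219 ± 73.2 in control grain (SD, n = 3 each, limma adjusted p = 0.00702), alpha 1 purothionin (MSTRG.9137) and alpha purothionin (MSTRG.5761). The call of MSTRG.9138 was kept in all 17 other settings, that of MSTRG.9137 was lost in 8 and that of MSTRG.5761 in 13. Without shaded library 3 this count became 1, and it was also 1 without control library 2 or 3 and without library 1 or 3 of partial removal. The list's median was -0.21 without the methionine enzymes and -0.06 with them. Among all loci 1.45% were called as lower in shaded grain against control.

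The amylase list held enzymes of wheat itself, not the insect and mammal alpha-amylases named above for CM3. It had 1 of 25 loci lower in shaded grain, the beta-amylase MSTRG.41026 on 4DL (log2 -2.30 ± 0.46, limma adjusted p = 0.0463). This call was lost in 14 of the 17 other settings, 8 of them with a single library left out, and adjusted p over the 17 reached 0.158. Endopeptidases and carboxypeptidases had 3 of 43 lower. Over all loci 1.45% were called as lower in shaded grain against control. Protein folding genes of the endoplasmic reticulum, where inhibitor and storage proteins form their disulfide bonds, had 0 of 16 called in limma (2 with an unadjusted p under 0.05) and a median of 0.14. Of the embryo and aleurone loci 1 of 18 fell, a caleosin on 2DL, and of the green tissue loci 0 of 8 were called, with 0 at an unadjusted p under 0.05.

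After partial removal no locus of these lists was called in limma, and 0.0306% of all loci were called there. An unadjusted p under 0.05 was found for 6.43% of all loci in this comparison. It was found for 6 of 18 storage protein loci, 18 of 49 starch and sucrose loci and 3 of 25 amylases. Of other inhibitor and defence loci it was found for 8 of 81, or 7 of 39 without the methionine enzymes. Endopeptidases and carboxypeptidases had 6 of 43, embryo and aleurone loci 4 of 18, folding genes 1 of 16 and green tissue loci 0 of 8. The storage protein median was -1.44 and the starch and sucrose median -0.26, against -0.60 for CM3. The CM3 difference was thus smaller than the storage protein median in this comparison. In shaded grain against control CM3 was at -2.70 and the storage protein median at -2.29. These lay closer together than the spread of CM3 within groups (SD 0.43). Single storage protein loci ran from -3.82 to 4.94 there and from -5.41 to 6.04 after partial removal.

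**Figure D4:**
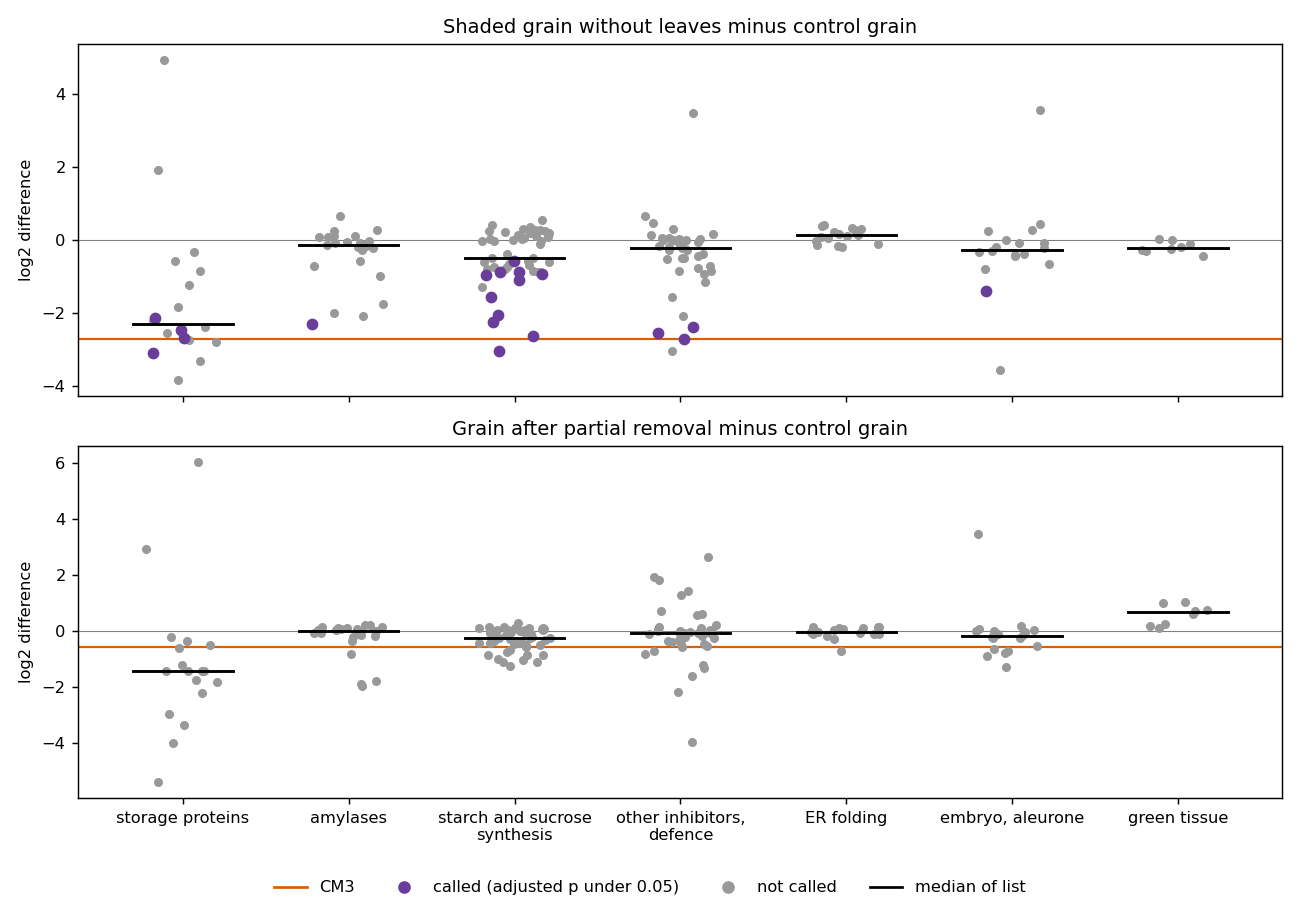
Log2 differences of list members that passed the filter, for shaded grain minus control (top) and partial removal minus control (bottom); each point is a locus, purple points were called by limma, black bars are list medians and the orange line is CM3, at -2.70 (top) and -0.60 (bottom). The list of other inhibitors and defence is drawn without methionine enzymes; storage proteins and single starch and thionin loci lie near the CM3 line in the top panel.

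In flag leaf CM3 was mostly not found. It was listed at 0 in all 6 leaf libraries of treated plants and in control leaf library 1. Control leaf libraries 2 and 3 had 3.43 and 6.13 FPKM. These same 2 libraries held transcripts of the storage protein list, at 39.1 and 57.9 FPKM in sum. The same sum was at most 0.591 FPKM in leaves of treated plants, and it was 0 in control leaf library 1.

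Against the beta-amylase sum CM3 was 2.1% and 4.0% in these 2 leaf libraries, inside the range of the grain libraries. That sum was 167 and 153 FPKM there, but of like size in leaf libraries without CM3. It was 152 FPKM in control leaf library 1 and 78.4 to 187 FPKM in leaves of treated plants. This ratio therefore does not compare like with like between leaf and grain. Other proportions lay outside the range of the grain libraries. CM3 was 8.77% and 10.6% of the storage protein sum there, against at most 2.85% in grain. It was 248% and 309% of MSTRG.41642 in the 2 leaf libraries, where that locus had 1.38 and 1.98 FPKM, against at most 48.6% in grain. The part of storage protein transcripts in the CM3 values of these leaf libraries was not tested.

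Control grain was compared with control leaf in a fit of 12 libraries that also held those after partial removal. All 3 serpins were higher in grain, where 71.4% of all loci were called, 35.2% as higher and 36.2% as lower. Serpin-N3.2 was higher by 6.46 ± 0.39 on the log2 scale, Serpin-Z1C by 5.02 ± 0.48 and Serpin-Z2A by 2.39 ± 0.22 (SE, limma). They had at most 0.334 FPKM in any leaf library. CM3 differed by 5.17 on the same scale, given without a test, with control leaf libraries 2 and 3 included.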

How the data were processed

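Poly(A) RNA of grains and flag leaves was sequenced in pairs on an Illumina HiSeq, per the labels' protocols. The authors deposited a table of gene FPKM. HISAT, StringTie and edgeR are named in the submitters' processing notes, with no version. The gene names are of the TGACv1 form, while the build used for alignment and the strand setting are not given in the sources used here. Read counts were not used here, so no intervals from counting are given. Summed over loci, a library held between 409211 and 779076 FPKM.

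Each FPKM column was divided by its median ratio to the geometric mean over the 71470 loci above 0 in all 9 grain libraries. Loci that reached 1 FPKM in 3 or more libraries were fitted as log2(scaled FPKM + 1) with limma 3.58.1 in R 4.3.3, with 1 mean per group and a trend on mean level. The added 1 lowers differences of low genes. A call is a Benjamini-Hochberg adjusted p under 0.05 over all loci tested. The fit of 12 grain and leaf libraries was scaled in the same way.

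CM3, the lists and the tests were chosen with earlier results of these data known. Lists are text patterns on the 12901 descriptions, and loci by gene ontology term were added after the table had been read. Context loci above the filter are all named, list members by level or size of change, and the 8 genes most like CM3 by r, once per description. Reads from near-identical copies in the wheat subgenomes may be counted for the wrong copy. Alternatives were another pseudocount, filter, scaling and weighting, a block on library number, and leaving out libraries.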

Additional observations from a re-analysis of the deposited data

How the results depend on the processing

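The CM3 difference kept its direction in all 17 alternatives to each comparison. Leaving out each library in turn gave -2.89 to -2.43 for shaded grain against control, -0.79 to -0.33 for partial removal against control and -2.29 to -1.90 for shaded grain against partial removal. Without scaling it was -3.21 for shaded grain against control and -2.88 against partial removal, while the median of all loci then shifted by -0.31 and -0.49. Without both shaded library 2 and control grain library 1, a setting added after seeing the data, it was -2.23.

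The count of serpins called in shaded grain against control, 0 of 3, became 2 without scaling and ranged from 0 to 2 when each library was left out. It stayed at 0 in the other 2 grain comparisons, also with each library left out. For grain against leaf it was 3. Without the filter, which lets the amylase inhibitor-like proteins be tested with the serpins, 4 of the context loci were called there. The counts of storage, starch and sucrose, and defence loci that fell were 8, 5 and 5 without scaling, and 2, 1 and 1 without the 2 libraries named above. Without a filter on low values the starch and defence counts were 5 and 1. With each library left out the 3 counts ranged from 3 to 5, from 2 to 9 and from 1 to 3.

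Same-numbered grain libraries correlated at -0.37 to 0.10 in their deviations from group means, so no pairing by number was seen. With 3 libraries per group this cannot exclude that the numbers mark a shared origin. With a replicate block the starch count was 4, the count of all loci called in shaded grain against control was 376 in place of 805, and the serpin counts stayed at 0, 0 and 0 in grain. All loci called in shaded grain against control numbered 369 without the filter and 510 without scaling, and 215 without both libraries. In partial removal against control 14 were called, 108 without scaling, 7 without the filter, 3 with the block and 26 with array weights. In shaded grain against partial removal 82 were called, 386 without scaling, 22 without the filter and 12 with the block. Their range with each library left out was 310 to 616, 8 to 46 and 19 to 126 in the 3 comparisons.

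Named loci that were called kept their direction in every setting, and 79 of 306 such refits lost the call. Among loci not called, 4 refits reversed. Serpin-Z1C turned to -0.29 in shaded grain against partial removal without scaling, and Serpin-N3.2 to 0.20 there without shaded library 1 (range with each library left out -0.99 to 0.20). Serpin-Z2A turned to 0.0034 in partial removal against control without control library 1 (range -0.54 to 0.0034), and to 0.0054 without that library and shaded library 2. The number of reads behind each value is unknown, which limits low values most.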
